A study of Mus musculus with 2 samples.

Results

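Amino acid transporter genes of 7 solute carrier families were read in mouse macrophages that had met lipid A for a second time. The genes were chosen by symbol: all members of the SLC1, SLC3, SLC6, SLC7, SLC36, SLC38 and SLC43 families whose symbol ends in a number. A protein-coding transcript was also required. Slc7a2 and Slc7a11 were left out and stand beside the chosen genes below. Slc6a20a and Slc6a20b fell outside the rule because their symbols end in a letter. That rule gave 59 genes, with 351 annotated transcripts, out of 55536 annotated genes, of which 22028 were protein coding. The cells were C57BL/6J bone marrow-derived macrophages, which are primary phagocytes grown in culture from marrow. They had 100 ng/ml lipid A for 12 h, a washout of 12 h, and 100 ng/ml lipid A again for 120 min. Lipid A is the part of bacterial lipopolysaccharide that the receptor TLR4 recognises; some label fields write lipoprotein A in its place. Both libraries had this one schedule, age and sex were not collected, and no untreated cells were analysed here, so the data give levels and not a response. The 2 libraries are biological replicates 1 and 2 of polyA plus RNA-seq, and they carry the same donor identifier. Separate animals are not mentioned anywhere, so the spread of these libraries may be technical in part. The p-values below set 1 library against the other and carry counting noise only.

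Amino acids cross membranes only through carriers, and a cell's set of carriers decides which ones it can take up, trade or release. SLC7 light chains work as exchangers in a disulfide-linked pair with a heavy chain of the SLC3 family, which brings them to the cell surface. SLC38 and SLC1 carriers draw neutral or acidic amino acids in with sodium, and some SLC36 carriers use protons. SLC43 carriers let large neutral amino acids through by facilitated diffusion, and SLC6 carriers use sodium and chloride. Several SLC38 and SLC36 proteins sit on the lysosome, where amino acid levels are sensed by the mTORC1 kinase complex. Macrophages draw on these carriers for arginine, glutamine and leucine, among others.

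Replicate 1 held 45377715 expected counts and replicate 2 held 32112416, so replicate 1 was the more deeply sequenced. The labelled cell type was checked against marker genes: 8 of 8 macrophage markers stood at 10 TPM or more in both libraries, the lowest value being 60.49 TPM. TPM is a transcript level corrected for gene length and scaled to the same total in each library. T cell, B cell, erythroid, stromal and epithelial markers, 4 genes each, were all under 1 TPM in both. Of 7 neutrophil markers, 3 (Ltf, S100a8 and S100a9) were at 1 TPM or more in both libraries and none at 10, and their summed level was 63.49 TPM in replicate 1 and 6.58 TPM in replicate 2. The neuron and glia list had 1 of 4 genes above 1 TPM, the folate enzyme Aldh1l1, and no reads on Gfap, Rbfox3 or Snap25. Whether these transcripts came from other cells, and the part of any such cells in the levels below, was not tested. In bulk RNA, fewer cells of a type and less RNA per cell cannot be told apart.

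Most of these genes were not detected, and a short list held most of the transcripts. Of the 59 genes, 20 (33.9%) reached 1 TPM in both libraries, the level called detected here, against 44.4% of all protein-coding genes. At 10 TPM in both libraries there were 13 (22.0%), against 27.2% of protein-coding genes. The median over all 59 genes of the mean level was 0.035 TPM, beside 0.31 TPM over all protein-coding genes. Among detected genes the median was 31.5 TPM for the transporters and 18.2 TPM for protein-coding genes as a whole. Slc6a12 was at 1 TPM or more in replicate 2 alone, 13 genes had reads but stayed under 1 TPM in both libraries, and 25 had no reads at all.

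The summed level of the 59 genes was 1647.65 TPM in replicate 1 and 1843.17 TPM in replicate 2, which is 0.179% and 0.200% of the protein-coding total. The 5 highest genes, Slc3a2, Slc6a6, Slc43a2, Slc7a8 and Slc7a7, made up 79.3% of that sum in replicate 1 and 78.9% in replicate 2. By family, SLC3 held 32.1% and 33.7% of it through 1 gene. SLC6 held 22.5% and 27.0%, almost wholly through Slc6a6 and Slc6a8. SLC43 held 16.0% and 11.3%, SLC7 held 15.3% and 15.1%, and SLC38 held 11.5% and 11.0%. SLC36 and SLC1 were small, at 2.30% and 1.57% for SLC36 and 0.277% and 0.288% for SLC1. Detection among the chosen genes was spread unevenly: 6 of 11 SLC38 genes and 5 of 13 SLC7 genes were detected, but 2 of 19 SLC6 genes.

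**Figure D1:**
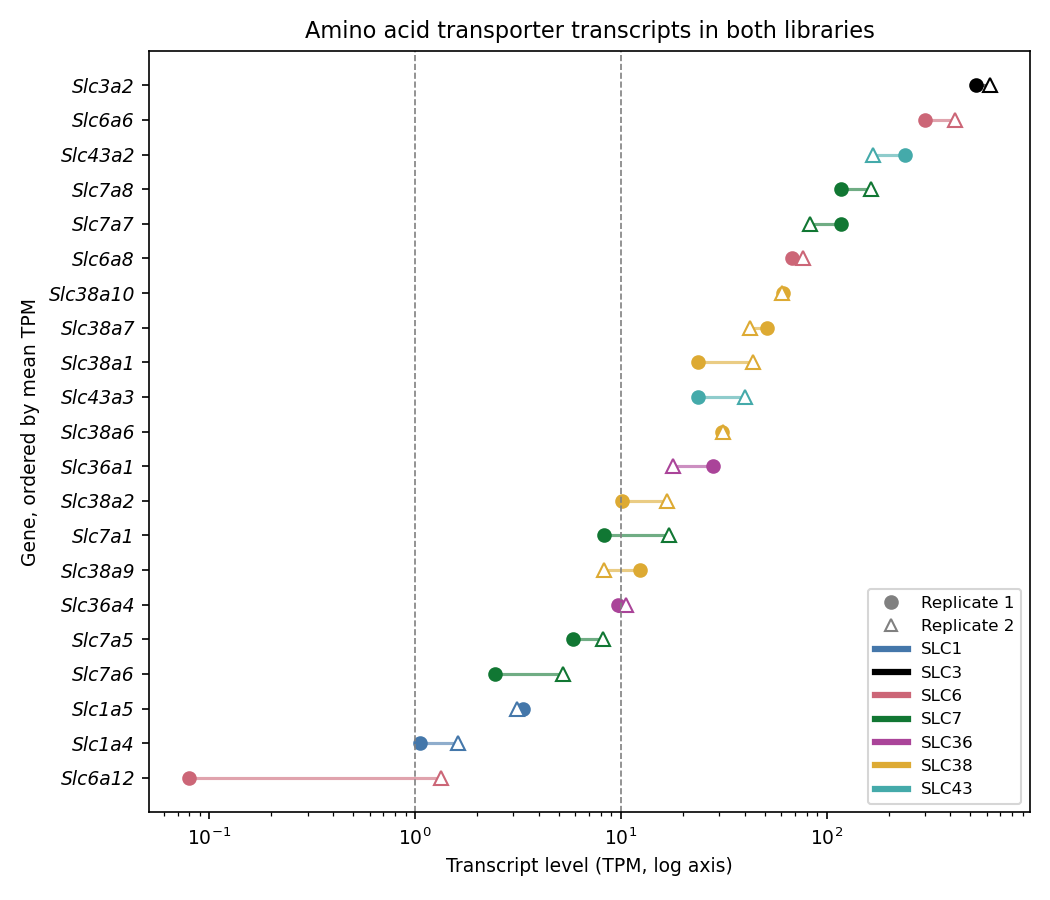
Transcript level in TPM (log axis) of the 20 detected genes and Slc6a12, ordered by mean, with replicate 1 as filled circles, replicate 2 as open triangles, and colour for the family; dashed lines stand at 1 and 10 TPM. Levels run from 575.14 TPM for Slc3a2 to 1.33 TPM for Slc1a4 by mean, and the gap between libraries is widest for Slc6a12.

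Of the 19 neighbouring pairs in the order of mean level, 12 had ranges that did not overlap, among them each step from Slc3a2 down to Slc38a7. The ranges of Slc38a7, Slc38a1, Slc43a3 and Slc38a6 overlapped from each to the next, as did those of Slc38a2, Slc7a1, Slc38a9 and Slc36a4, and those of Slc7a6 and Slc1a5. These neighbours did not differ beyond the spread of the libraries. The step from Slc7a8 to Slc7a7 rests on 117.86 against 116.92 TPM, both in replicate 1. In a second deposited quantification, made from the reads without an alignment file, Slc7a8 had 95.6 and 152 TPM and Slc7a7 had 119 and 86.5 TPM, so their ranges overlapped.

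Slc3a2, the heavy chain known as CD98 (ENSMUSG00000010095, mm10 chromosome 19, 8706882 to 8723369, minus strand), was the highest of all 59 genes. It had 529.64 TPM from 24161 reads in replicate 1 and 620.64 TPM from 19041 reads in replicate 2, a mean of 575.14 ± 64.3 TPM (SD, n = 2). Among protein-coding genes it ranked 261 in replicate 1 and 208 in replicate 2. The other heavy chain, Slc3a1, which serves kidney and gut transport of cystine, had no reads in either library. Its light-chain partners Slc7a9 and Slc7a13 had none either. The heavy-chain transcript in these cells was therefore that of Slc3a2 to within the floor of 3 reads, which is 0.0661 CPM (counts scaled to library size) in replicate 1 and 0.0934 in replicate 2.

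The light chains that join Slc3a2 were led by a pair of genes on chromosome 14. Slc7a8, an exchanger of neutral amino acids (54722209 to 54781946, minus strand), had 117.86 TPM in replicate 1 and 164.93 TPM in replicate 2. Slc7a7, which exports arginine and lysine in exchange for neutral amino acids and sodium (54369442 to 54417780, minus strand), had 116.92 TPM in replicate 1 and 82.57 TPM in replicate 2. The 2 genes were level in replicate 1 and apart in replicate 2. Slc7a5, the leucine and large neutral amino acid exchanger (chromosome 8, 121881150 to 121907694), was far lower, at 5.84 TPM in replicate 1 and 8.21 TPM in replicate 2. Slc7a6, a relative of Slc7a7 with the same kind of exchange, had 2.44 TPM in replicate 1 and 5.21 TPM in replicate 2. Slc7a10 had no reads. Of the 9 SLC7 light chains chosen here, 4 were detected, and Slc7a15 had 1 read in replicate 1 and none in replicate 2.

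The heavy chain exceeded the sum of its light chains in both libraries. Summed over Slc7a5, Slc7a6, Slc7a7, Slc7a8 and Slc7a10, the light chains stood at 243.06 TPM in replicate 1 and 260.92 TPM in replicate 2. Slc3a2 was 2.18 times that sum in replicate 1 and 2.38 times in replicate 2, a mean ratio of 2.28 ± 0.14 (SD, n = 2). With Slc7a11 counted as a light chain the mean ratio was 2.24, and in the second quantification it was 2.11. Slc7a8 held 48.5% of the light-chain sum in replicate 1 and 63.2% in replicate 2, while Slc7a7 held 48.1% and 31.6%. The second quantification gave 42.9% and 60.4% for Slc7a8 and 53.4% and 34.4% for Slc7a7. These are ratios of transcripts and say nothing of protein.

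**Figure D2:**
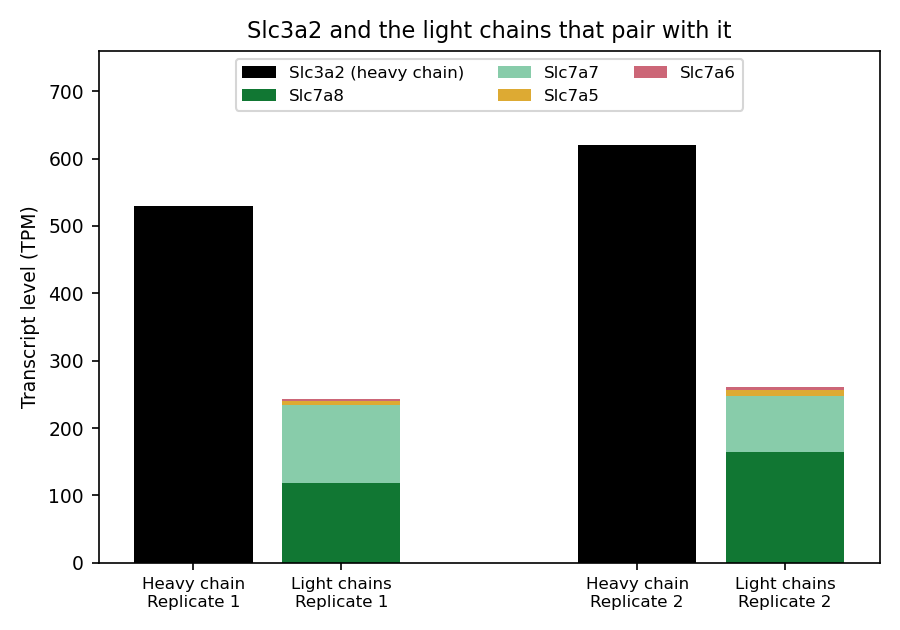
Transcript level in TPM of the heavy chain Slc3a2 (black bars) beside the stacked levels of its light chains Slc7a8, Slc7a7, Slc7a5 and Slc7a6, for replicate 1 and replicate 2. The heavy chain is 2.18 times the light-chain sum in replicate 1 and 2.38 times in replicate 2, and Slc7a8 takes the larger share in replicate 2.

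The cationic branch of SLC7 works without a heavy chain, and 1 of its 4 genes chosen here was detected. Slc7a1, the arginine and lysine carrier of most cells (chromosome 5, 148327410 to 148399904), had 8.25 TPM from 1785 reads in replicate 1 and 17.07 TPM from 2502 reads in replicate 2. Slc7a4 had 0.70 TPM from 33 reads in replicate 1 and 0.27 TPM from 10 reads in replicate 2. Slc7a3, a cationic carrier known from brain, had 2 reads in replicate 1 and none in replicate 2, and Slc7a14 had none. Beside them Slc7a2, the arginine carrier that activated macrophages are known for, had 5.11 TPM in replicate 1 and 9.38 TPM in replicate 2. Slc7a1 and Slc7a2 were thus both higher in replicate 2.

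SLC43 was represented by Slc43a2, a carrier of leucine and other large neutral amino acids (chromosome 11, 75531694 to 75577575). It had 239.99 TPM in replicate 1 and 168.40 TPM in replicate 2, a mean of 204.2 ± 50.6 TPM (SD, n = 2), and was the third gene of the order. Slc43a3, known for facilitated transport of purine nucleobases (chromosome 2, 84936579 to 84958509), had 23.79 TPM in replicate 1 and 39.98 TPM in replicate 2. The remaining member, Slc43a1, a leucine carrier that lies 73.0 kb from Slc43a3, had 1 read in replicate 1 and none in replicate 2. Within the family the levels therefore ran from the top of the order to the floor.

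In SLC6, a family named mostly for neurotransmitter carriers, the expressed genes were those for taurine and creatine. Slc6a6, the taurine carrier (ENSMUSG00000030096, chromosome 6, 91684053 to 91759066), had 301.36 TPM from 52690 reads in replicate 1 and 418.42 TPM from 49516 reads in replicate 2. Slc6a8, the creatine carrier (chromosome X, 73673150 to 73682502), had 68.10 TPM in replicate 1 and 77.17 TPM in replicate 2. They accounted for 2 of the 6 genes in the group of GABA, betaine, taurine and creatine carriers. Slc6a12, which carries betaine and GABA, had 0.08 TPM from 3 reads in replicate 1 and 1.33 TPM from 27 reads in replicate 2. Slc6a13, a GABA and taurine carrier 5.34 kb from Slc6a12, had 5 reads in replicate 1 and 16 in replicate 2. Both neighbours were near the floor in replicate 1 and above it in replicate 2.

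None of the 10 SLC6 genes grouped as amino acid carriers was detected, and 8 of them had no reads. Slc6a19, the neutral amino acid carrier of gut and kidney, had 0.35 TPM in replicate 1 and 0.51 TPM in replicate 2, and the glycine carrier Slc6a9 had 0.04 TPM and 0.22 TPM. Of the 3 monoamine carriers, the serotonin carrier Slc6a4 had 7 reads in replicate 1 and 8 in replicate 2, while the noradrenaline carrier Slc6a2 and the dopamine carrier Slc6a3 had none.

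SLC38 was the family with the most detected genes. Slc38a1, a sodium-driven glutamine carrier of the type called system A (chromosome 15, 96571418 to 96642913), had 23.68 TPM in replicate 1 and 43.96 TPM in replicate 2. Slc38a2, the system A carrier whose gene is known to respond to amino acid lack, lies 44.5 kb away and had 10.17 TPM in replicate 1 and 16.74 TPM in replicate 2. Both neighbours were higher in replicate 2, and Slc38a1 was the higher of the pair in both libraries. The third system A gene, Slc38a4, had no reads. Neither had the system N genes Slc38a3 and Slc38a5, which carry glutamine and histidine in liver and brain.

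The other SLC38 genes were closer between the libraries. Slc38a10 (chromosome 11, 120103960 to 120151346) had 61.29 TPM in replicate 1 and 60.60 TPM in replicate 2. Slc38a7, a lysosomal carrier of glutamine and asparagine (chromosome 8, 95835920 to 95853539), had 51.05 TPM in replicate 1 and 42.60 TPM in replicate 2. Slc38a6 had 30.98 TPM in replicate 1 and 31.19 TPM in replicate 2. Slc38a10 and Slc38a6 thus differed by less than 1 TPM between libraries. Slc38a9, the lysosomal arginine sensor of the mTORC1 pathway (chromosome 13, 112660751 to 112738749), had 12.42 TPM in replicate 1 and 8.31 TPM in replicate 2. Slc38a8 and Slc38a11 had no reads. The second quantification put Slc38a6 higher, at 49.3 TPM in replicate 1 and 55.1 TPM in replicate 2.

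Of the 4 SLC36 genes, 2 were detected. Slc36a1, a carrier of small neutral amino acids on lysosomes and the cell surface (chromosome 11, 55204350 to 55236330), had 28.12 TPM in replicate 1 and 18.01 TPM in replicate 2. Slc36a4, a carrier of proline and tryptophan, had 9.65 TPM in replicate 1 and 10.64 TPM in replicate 2. The 3 SLC36 genes on chromosome 11 sit in a row, yet Slc36a2, which is 19.3 kb from Slc36a1, had no reads. Slc36a3, 6.76 kb further on, had 5 reads in replicate 1 and 11 in replicate 2.

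SLC1 was low throughout. Slc1a5, the glutamine exchanger, had 3.36 TPM in replicate 1 and 3.12 TPM in replicate 2, and Slc1a4, a carrier of serine and alanine, had 1.05 TPM in replicate 1 and 1.61 TPM in replicate 2. None of the 5 glutamate carriers of the family was detected. Slc1a2, the main glutamate carrier of astrocytes, had 6 reads in replicate 1 and 10 in replicate 2. Slc1a3, another astrocyte carrier, had 10 reads in replicate 1 and 4 in replicate 2, and Slc1a1, the neuronal one, had none in replicate 1 and 3 in replicate 2. Slc1a6 and Slc1a7 had no reads.

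Among the 38 genes under 1 TPM in both libraries the highest value was 0.70 TPM, that of Slc7a4 in replicate 1. By family, the 25 genes without reads were 11 of SLC6, 5 of SLC7, 5 of SLC38, 2 of SLC1, 1 of SLC3 and 1 of SLC36. They were Slc1a6, Slc1a7, Slc3a1, Slc6a2, Slc6a3, Slc6a5, Slc6a7, Slc6a11, Slc6a14, Slc6a15, Slc6a16, Slc6a17, Slc6a18, Slc6a21, Slc7a9, Slc7a10, Slc7a12, Slc7a13, Slc7a14, Slc36a2, Slc38a3, Slc38a4, Slc38a5, Slc38a8 and Slc38a11. For each of them a level below the 3-read floor could have been missed at this depth. The second quantification gave several of them a low value, such as Slc7a13 at 0.0610 TPM in replicate 1 and 0.0613 TPM in replicate 2.

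Libraries were then compared gene by gene, a comparison of 2 libraries and not of conditions. Ratios of replicate 2 over replicate 1 were taken from expected counts with scaled library sizes, where a gene averaged 10 reads or more, which 24 of the 59 genes did. Of these, 5 (20.8%) were at least 2-fold apart, against 11.3% of all 12552 genes compared. In 4 the value was higher in replicate 2, which 5.29% of all genes were by that much, and in 1 it was higher in replicate 1, against 5.99%. That count is small and moves with the settings: it was 3 with scaling by total counts, 3 in the second quantification and 2 where the mean had to reach 100 reads. The median log2 ratio was 0.17 over the 24 genes and -0.02 over all genes. The median absolute log2 ratio was 0.49 and 0.36.

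Slc7a1 and Slc43a3 were the well-covered genes past 2-fold. Slc7a1 was 2.08-fold higher in replicate 2 (exact 95% interval 1.96 to 2.22), and Slc43a3 was 2.04-fold higher (1.88 to 2.21), with 1033 reads in replicate 1 and 1417 in replicate 2. Both intervals reach below 2, and with scaling by total counts both folds fell under it. In the second quantification the log2 ratio of Slc43a3 was 0.96, under 2-fold, and its TPM ratio was 1.68. The remaining 3 rest on few reads. Slc6a12 was 11.3-fold higher in replicate 2 (4.12 to 68.9), Slc6a13 was 4.36-fold higher (1.67 to 16.6), and Slc7a4 was 2.17-fold higher in replicate 1 (1.07 to 5.05). Slc7a11, the cystine and glutamate exchanger that also pairs with Slc3a2, stood at 0.98 TPM in replicate 1 and 7.91 TPM in replicate 2, an 8.33-fold difference by scaled counts.

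By the two-sided exact binomial test, run on counts rounded to whole reads with Benjamini-Hochberg adjustment over all 12552 genes, 19 of the 24 genes (79.2%) differed between the libraries, against 64.7% of all genes. Higher in replicate 2 were 13 of them, against 32.5% of all genes, and higher in replicate 1 were 6, against 32.3%. The test sees counting noise only, so at this depth it calls small folds: Slc3a2 was called at 1.17-fold (1.15 to 1.19) and Slc6a8 at 1.14-fold (1.10 to 1.19). Slc36a4 was called at 1.10-fold (1.03 to 1.18; adjusted p = 0.0129, exact binomial test). The 5 genes not called were Slc38a10, Slc38a6, Slc7a6, Slc1a5 and Slc6a19. Of these Slc38a10 had a fold of 0.969 (0.932 to 1.01; adjusted p = 0.152, exact binomial test) and Slc1a5 one of 0.886 (0.722 to 1.08; adjusted p = 0.313, exact binomial test).

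Smaller differences went both ways. Slc38a1 was 1.85-fold (1.78 to 1.92) and Slc38a2 1.66-fold (1.54 to 1.78) higher in replicate 2, as were Slc7a8 at 1.42-fold (1.39 to 1.46), Slc7a5 at 1.42-fold (1.26 to 1.59) and Slc6a6 at 1.40-fold (1.38 to 1.42). Slc36a1 was 1.55-fold (1.47 to 1.64), Slc38a9 1.25-fold (1.16 to 1.35) and Slc38a7 1.21-fold (1.16 to 1.28) higher in replicate 1. So was the arginine exporter Slc7a7, at 1.44-fold (1.38 to 1.503). These examples were picked after the values were seen. Neutrophil markers other than Mpo were higher in replicate 1 as well, with S100a8 at 25.77 TPM there against 3.72 TPM in replicate 2. Mpo had 0.16 TPM in replicate 1 and 0.17 TPM in replicate 2. The part of neutrophil transcripts in these differences was not tested.

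**Figure D3:**
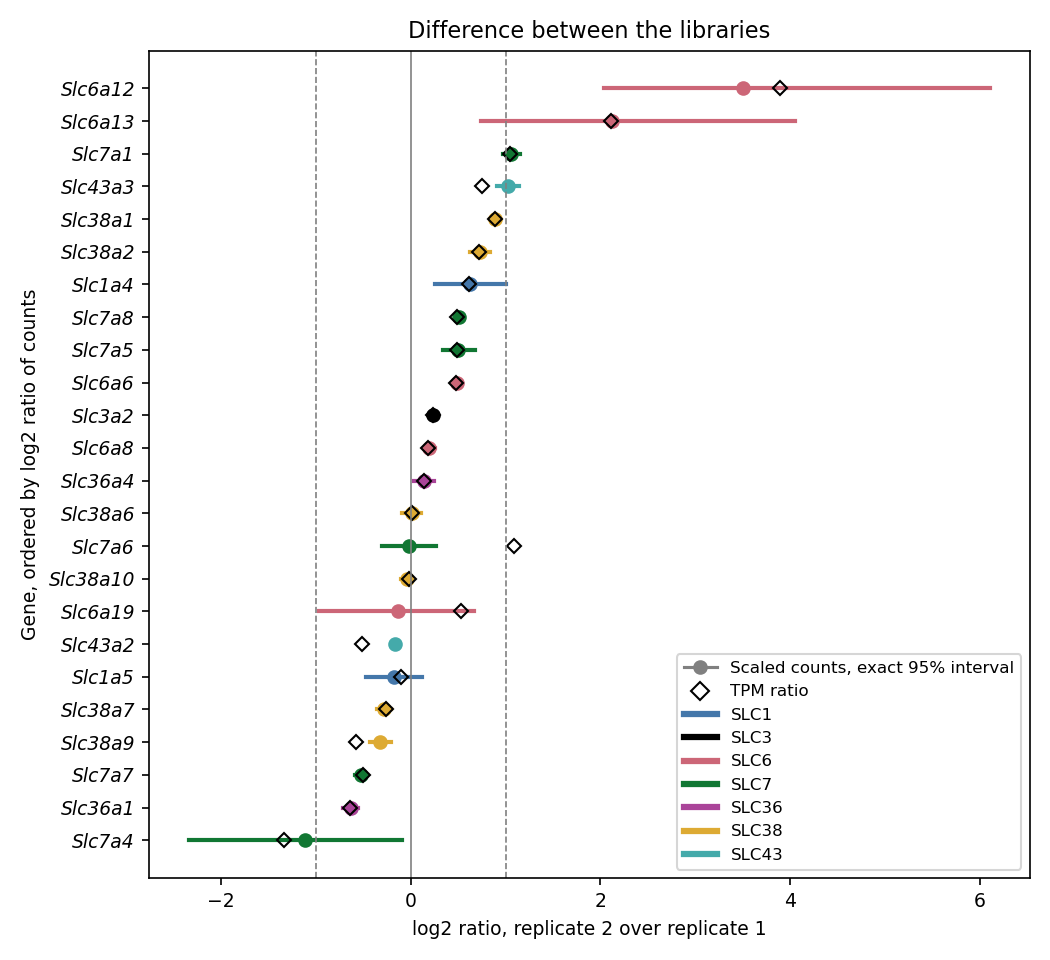
Log2 ratio of replicate 2 over replicate 1 for the 24 genes that averaged 10 reads or more, from scaled expected counts (filled circles with exact 95% counting intervals) and from TPM (open diamonds); dashed lines mark 2-fold. Slc7a6 is the gene whose 2 measures lie furthest apart, at -0.02 by counts and 1.09 by TPM, and the widest intervals belong to Slc6a12, Slc6a13 and Slc7a4.

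Reads and TPM did not always give the same ratio. Slc7a6 had 264 reads in replicate 1 and 175 in replicate 2, a scaled fold of 0.986 (0.810 to 1.20), but its TPM ratio was 2.14. Its leading transcript, Slc7a6-201 of 3750 bases, held 96.7% of the gene's TPM in replicate 1 and 30.7% in replicate 2. The 359-base retained-intron transcript Slc7a6-206 held 0% in replicate 1 and 25.3% in replicate 2. The second quantification gave 42.6% and 19.0% for Slc7a6-201 and 8.47% and 14.8% for Slc7a6-206. There Slc7a6-205 led replicate 2 with 38.5%, so the size of these shifts is not settled. Slc43a2, with 34049 and 20345 reads, had a scaled fold of 0.889 (0.873 to 0.904) and a TPM ratio of 0.702. In Slc7a6 and Slc43a2 the mix of long and short transcripts differed between libraries in the deposited tables, and the part of that mix in the ratio was not tested. The TPM ratios of Slc43a3 (1.68) and Slc38a9 (0.669) also lay outside their counting intervals, that of Slc38a9 being 0.739 to 0.862.

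Transcript shares were read for the 16 genes whose mean level reached 10 TPM. In 6 of them, Slc6a6, Slc7a8, Slc36a1, Slc38a2, Slc7a1 and Slc36a4, the leading transcript held 90% or more of the gene's TPM in both libraries. In the other 10 it held less in at least one. All 16 leading transcripts were annotated as protein coding. Slc3a2-201 held 76.5% in replicate 1 and 71.0% in replicate 2, and Slc3a2-207, also protein coding, held 20.8% and 26.8%. Slc38a7-204 held 87.95% and 86.9%, and Slc7a7-201 held 58.2% and 54.5%. These shares were close between the libraries.

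Slc43a2 and Slc6a8 were less even. Slc43a2-201, of 6891 bases, held 46.4% of the gene in replicate 1 and 72.9% in replicate 2, while the shorter Slc43a2-202, of 3236 bases, held 21.3% and 6.29%. The second quantification gave 28.7% and 59.1% for Slc43a2-201 and 34.0% and 17.4% for Slc43a2-202, so in replicate 1 it put the shorter one ahead. Slc6a8-203 held 53.8% in replicate 1 and 44.7% in replicate 2, but 17.3% and 37.7% in the second quantification, where Slc6a8-201 led replicate 1 with 30.8%. Slc6a8-202, annotated as a target of nonsense-mediated decay, stood at 0 TPM in replicate 1 and 22.51 TPM in replicate 2, but the second quantification gave 0 TPM and 4.23 TPM. Slc43a3-201 held 53.3% and 65.1%. Slc38a6-206 held 54.8% and 49.0%, but 29.4% and 26.3% in the second quantification, where Slc38a6-202 led replicate 2 with 32.3%.

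Slc38a9 had a large share in transcripts not annotated as protein coding. Its protein-coding transcript Slc38a9-201, of 8910 bases, held 52.6% in replicate 1 and 61.9% in replicate 2. Transcripts of other annotated types, those marked for nonsense-mediated decay included, held 47.4% and 38.1%. Of these, the 681-base Slc38a9-202 held 30.5% in replicate 1 and 11.8% in replicate 2. The second quantification gave Slc38a9-201 37.7% and 57.0%, and put Slc38a9-202, a target of nonsense-mediated decay, ahead in replicate 1 with 47.7%. For Slc38a10 and Slc38a1 the transcript leading by its mean share also depended on the quantification. Slc38a10-201 held 71.9% and 70.8% in the first, but 10.6% and 7.50% in the second, where Slc38a10-216 led with 57.9% and 63.8%. Slc38a1-202 held 49.8% and 49.7% in the first, whereas Slc38a1-201 led the second with 52.9% and 43.96%. Single transcripts of those genes are therefore not settled by these tables.

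**Figure D4:**
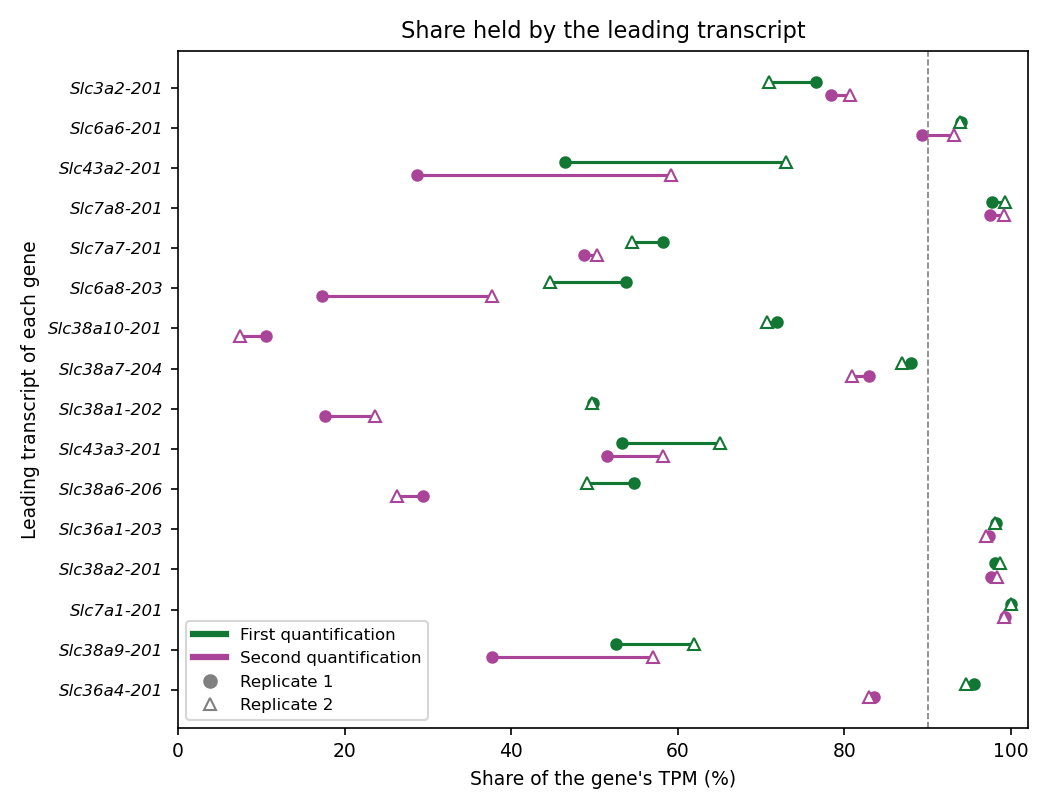
Share of the gene's TPM, in percent, held by the leading transcript of each of the 16 genes whose mean level reached 10 TPM, in the first quantification (green) and the second (purple), with replicate 1 as filled circles and replicate 2 as open triangles; the dashed line stands at 90%. The transcript is the one leading in the first quantification, and Slc38a10-201 shows the widest gap between quantifications.

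Some genes share exonic sequence with a neighbour on the opposite strand, and whether strand was used in counting is not given in the sources used here. Slc43a2 shares 922 bases with the antisense gene Gm45606, which had 5.42 TPM in replicate 1 and 7.16 TPM in replicate 2. Slc7a7 shares 232 bases with Oxa1l, a mitochondrial insertase gene at 25.96 and 24.09 TPM, and Slc38a10 shares 367 bases with Gm11769, at 0.17 and 0.42 TPM. Slc7a4 shares 554 bases with P2rx6, an ATP receptor gene at 0.53 and 0.84 TPM, which is close to its own level. Reads in those stretches cannot be told apart here, so the low value of Slc7a4 is uncertain. Expected counts were not whole, within 0.005, for Slc43a2, Slc7a7, Slc38a10 and Slc6a9.

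Promoter windows were searched for 3 motifs, because carriers of these families are known targets of ATF4 in amino acid lack and of E-box factors that act on lysosomal genes. RefSeq windows of 250 bases before to 50 after a start site (GRCm38.p6) were found for 42 of the 59 genes and 14 of the 20 detected ones. Only 1 window per gene was searched, though some genes have more, such as Slc7a7 with 5. It was the window nearest the start of the leading transcript where the mean level reached 10 TPM, and otherwise the first listed. Searched on both strands, CACGTG, the E-box, was in 9 of the 42 windows and 2 of the 14, against 7.15% of all 32817 windows. TGATGNAA, the core of the amino acid response element, was in 2 of 42 and 1 of 14, against 3.97% of all windows. GAGGAAGT, a form of the site of the macrophage factor PU.1, was in 1 of 42 and 0 of 14, against 3.20%. The motifs do not overlap each other in the windows shown here.

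The detected genes with a match are printed 5′ to 3′ on the strand of the gene, with the match in capitals, beside the window of Slc3a2 as the gene at the top of the order. Slc36a1 (chr11:55204090-55204389, plus strand) has CACGTG at -31 and -3, counted from the start site to the first base of the match. Slc38a7 (chr8:95853442-95853741, minus strand) has it at -34. Slc1a4 (chr11:20332664-20332963, minus strand) has the amino acid response core on its other strand at -4. Slc3a2 (chr19:8713848-8714147, minus strand) holds none of the 3 in this window.
Slc36a1: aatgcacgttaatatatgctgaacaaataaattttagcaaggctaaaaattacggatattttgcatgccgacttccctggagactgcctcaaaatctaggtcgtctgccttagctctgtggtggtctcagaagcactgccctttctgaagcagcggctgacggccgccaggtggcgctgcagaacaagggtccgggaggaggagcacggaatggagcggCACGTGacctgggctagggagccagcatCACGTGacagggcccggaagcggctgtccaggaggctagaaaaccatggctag
Slc38a7: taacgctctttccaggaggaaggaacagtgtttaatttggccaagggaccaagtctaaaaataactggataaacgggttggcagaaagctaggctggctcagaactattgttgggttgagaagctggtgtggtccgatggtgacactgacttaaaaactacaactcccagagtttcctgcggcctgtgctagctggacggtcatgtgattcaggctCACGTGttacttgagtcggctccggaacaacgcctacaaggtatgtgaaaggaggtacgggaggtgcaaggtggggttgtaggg
Slc1a4: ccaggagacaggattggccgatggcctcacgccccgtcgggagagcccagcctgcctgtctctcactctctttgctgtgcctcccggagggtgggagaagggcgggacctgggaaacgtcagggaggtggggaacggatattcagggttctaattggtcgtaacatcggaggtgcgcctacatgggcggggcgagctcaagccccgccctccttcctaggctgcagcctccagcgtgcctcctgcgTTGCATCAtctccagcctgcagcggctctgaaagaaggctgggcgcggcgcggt
Slc3a2: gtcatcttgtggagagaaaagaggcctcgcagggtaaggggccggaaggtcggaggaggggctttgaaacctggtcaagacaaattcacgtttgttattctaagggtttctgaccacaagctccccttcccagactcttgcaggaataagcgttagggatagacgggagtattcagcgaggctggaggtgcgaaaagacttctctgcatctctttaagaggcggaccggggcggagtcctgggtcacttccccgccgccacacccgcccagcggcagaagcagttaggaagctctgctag
A match is a run of letters and not a bound site, and a window without one says nothing of the factor.

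Amino acid carriers outside the 59 genes were read for comparison from a list of 23 genes. Of these, 12 were at 1 TPM or more in both libraries and 7 at 10 or more. The list holds Slc7a2, Slc7a11, Slc6a20a and Slc6a20b. Slc6a20a had 1 expected count and Slc6a20b 1.33 in replicate 1, and both had 0 in replicate 2. Slc15a3, a lysosomal carrier of histidine and peptides, had 869.9 TPM in replicate 1 and 904.06 TPM in replicate 2, above every one of the 59 genes. Its relative Slc15a4 had 87.0 TPM in replicate 1 and 67.91 TPM in replicate 2. The second quantification put Slc15a4 lower, at 39.1 and 33.5 TPM, and by scaled counts it was 2.04-fold higher in replicate 1. Other lysosomal exporters were also present: Pqlc2, for cationic amino acids, had 48.54 TPM in replicate 1 and 31.93 TPM in replicate 2, and Ctns, for cystine, had 18.4 and 17.99 TPM. Slc16a10, the carrier of aromatic amino acids, had 44.29 and 44.14 TPM. In mitochondria, the glutamate carrier Slc25a22 had 61.33 and 49.22 TPM and the aspartate and glutamate exchanger Slc25a12 had 25.28 and 27.12 TPM.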

How the data were processed

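PolyA plus RNA-seq was used from 2 libraries of 1 group. Per the deposited notes, values refer to mm10 and GENCODE M21; the sources used here name no program and do not say whether strand was used. The deposited gene table holds expected counts (estimated reads, not always whole), TPM and FPKM as made by the authors from alignments. The deposited transcript tables give TPM and each transcript's percent of its gene; a second deposited table gives estimated counts and TPM obtained from the reads without an alignment file. Estimated counts of the second table were summed to genes, where 86 genes had no value.

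Members and lists were chosen with earlier results of these data known. Ratios were taken from expected counts after adding 0.5 reads, with library sizes scaled by TMM (edgeR 4.0.16 in R 4.3.3), where a gene averaged 10 reads or more, and got exact 95% Clopper-Pearson intervals. The exact binomial test (two-sided, scipy 1.17.1) ran on the rounded counts of 12552 genes, with p as 2 times the smaller tail and a threshold of 0.05 after adjustment. It was tested on simulated data. Transcript shares are TPM of a transcript over that of its gene. Total expected counts were 45377715 and 32112416; intervals and floors cover counting error only.

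Every gene at 1 TPM or more in both libraries, every gene 2-fold apart, and the genes whose leading transcript was under 90% or differed between quantifications were named; genes under 1 TPM were counted and named, except 1 that is not reported here. Transcripts of Slc7a6 were read after its values were seen, and Slc7a2, Slc7a11 and the other outside carriers named were picked after theirs. The alternatives tried were scaling by DESeq2 1.42.0 or by library totals, TPM ratios (pseudocount 0.01), other filters, folds and levels, FPKM, TPM rescaled to nuclear protein-coding genes, the second quantification and leaving out each library. Protein sequences were not used here.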

Additional observations from a re-analysis of the deposited data

How the results depend on the processing

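Of the 24 genes compared, the number at least 2-fold apart was 5 and moved most. It was 3 with scaling by total expected counts and 12 of 34 without a filter on low counts. With a mean of at least 100 reads it was 2 of 20. It was 3 of 26 in the second quantification, 9 at 1.5-fold and 2 at 3-fold. The ratio of Slc3a2 to its light chains, 2.28, was 2.11 in the second quantification and 2.18 to 2.38 when either library was left out, a setting chosen after seeing the data. Detected genes numbered 19 to 21 over all alternatives, levels of 0.5 and 2 TPM included. With the level of 10 kept, the higher class numbered 12 to 15, beside 17 at 5 TPM and 11 at 20 TPM. Leaving out a library gave 20 to 21 detected genes and 14 to 15 at 10 TPM. The exact binomial test called 16 to 19 genes, but out of differing totals. It called 19 of 24 as reported, 16 of 20 with a mean of at least 100 reads and 18 of 34 without a filter. In the second quantification it called 19 of 26. The share of all genes called was taken for the reported setting only. Of the log2 ratios, that of Slc7a4 lost its call with DESeq2 size factors (-1.10) and in the second quantification (-0.79), and that of Slc38a6 gained one there (0.11); the cause was not tested. No called ratio changed direction, but by TPM ratio the uncalled log2 ratios of Slc7a6 (-0.02) and Slc6a19 (-0.14) came out at 1.09 and 0.53. In the second quantification 13 of 16 leading transcript shares and 4 of 21 mean levels moved past the spread of the libraries. With TPM rescaled to nuclear protein-coding genes 7 of 21 mean levels did, that of Slc3a2 going from 575.14 to 661.17 TPM. No paired analysis was possible because all samples form 1 group. Comparisons between libraries need both, so neither could be left out. The 35 genes not compared had too few reads for a ratio, and 25 of them had none.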
